A study of Danio rerio with 15 samples.

Results

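The effect of nup133 depletion on messenger RNA was set against that of elys depletion, gene by gene, in zebrafish embryos at 3, 4 and 4.5 hours post fertilization (hpf). The comparison used 12 of the 15 libraries of the series, 3 for each of 4 groups, with 1 library per group and stage. For each gene and stage the level in the line labelled MZnup133 minus the level in its wildtype gave the MZnup133 effect, and the level in the line labelled Melys minus that in its own wildtype gave the Melys effect. Levels were taken as log2(FPKM + 1), where FPKM counts fragments relative to transcript length and library size. This scale understates the change of low genes. The effect difference is the MZnup133 effect minus the Melys effect, so it is positive where the RNA stood higher in MZnup133, relative to wildtype, than in Melys. It was tested with limma over the 3 stages, and a gene was called at an adjusted p under 0.05. Of 13493 genes tested, among 23726 in the table, 711 were called.

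The RNA was poly(A) RNA of dechorionated whole embryos. MZnup133 carries a depletion of nup133 and Melys one of elys, which the table lists as ahctf1. The prefixes MZ and M, used in zebrafish for maternal-zygotic and maternal mutants, are not spelled out in the labels, and the alleles, the number of embryos per library and the clutches are not given there. Both controls are labelled wildtype with no strain, so the p-values speak only for the spread among these samples, which may be technical. The wildtype columns do not name their control set, so each was matched to a depletion by the leading number of its column. The wildtype libraries matched to MZnup133 are called the nup133 set and those matched to Melys the elys set. The Tgnup133 libraries of the series, which overexpress nup133, entered the fit only through the estimate of the spread.

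Nup133 is a subunit of the Nup107-160 complex, also called the Y-complex, which forms the scaffold rings of the nuclear pore. Elys binds chromatin and recruits the Y-complex there, which starts pore assembly around the chromosomes after each division. The early fish embryo divides rapidly on RNA and protein stored in the egg, and during zygotic genome activation it begins to transcribe its own genes and to clear the maternal RNA.

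The 12 libraries were alike in size, while mitochondrial RNA was lower in both depletions. The sum of FPKM ranged from 508714.6 to 573270.2, and 12356 to 13057 genes had at least 1 FPKM. Read depth is unknown. Of that sum, mitochondrially encoded genes took 7.29% to 10.2% in the nup133 set, 7.37% to 8.65% in the elys set, 5.1% to 6.53% in MZnup133 and 4.76% to 5.31% in Melys. Markers of blood, muscle, pancreas, lens and neurons, cell types that should be absent at these stages, gave 0 genes that passed the filter of a mean of 1 FPKM. The highest value of any of the 20 such genes in the table was 7.104 FPKM. In whole embryos, fewer cells of a type and less RNA per cell cannot be told apart.

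The targeted genes gave the first difference. The transcript of nup133 (ENSDARG00000010078) stood at 0.431, 0 and 0.208 FPKM at 3, 4 and 4.5 hpf in MZnup133, and at 12.6, 13.1 and 11.7 FPKM in its wildtype. In Melys nup133 had 9.83, 9.91 and 8.62 FPKM, against 9.35, 11.6 and 11.6 FPKM in wildtype. Only the 3 MZnup133 libraries were low, and those of Melys overlapped the wildtype range. The effect difference of nup133 was -3.31 ± 0.29 (log2, SE, 3 stages a side; limma adjusted p 0.000237), with -3.31, -3.61 and -3.01 at the 3 stages. The transcript of ahctf1 (ENSDARG00000077530) had 13.5, 25.8 and 24.1 FPKM in Melys, 18.7, 26.8 and 19.5 FPKM in the elys set, 23.1, 38.0 and 31.2 FPKM in MZnup133 and 20.3, 28.2 and 19.1 FPKM in the nup133 set. These groups overlapped, and the effect difference of 0.49 ± 0.26 did not pass (limma adjusted p 0.345), so the level of ahctf1 RNA does not check the label Melys.

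Some genes moved the same way in both depletions, and the effects of others differed. MZnup133 differed from its wildtype in 2968 genes (22.0% of those tested) and Melys from its own in 1368 (10.1%). Of the 680 genes called in both, 581 moved in the same direction, 337 higher and 244 lower, and 99 in opposite directions. The effect difference itself was called for 711 genes (5.27%), 372 higher (2.76%) and 339 lower (2.51%) in MZnup133, and for 2603 at an unadjusted p under 0.05. For 554 of the 581 genes that moved the same way the effect difference was not called, which does not show that they moved equally. Likewise, 2288 genes were called in MZnup133 and not in Melys, but the difference was called for only 393 of them. Another 688 genes were called in Melys and not in MZnup133, and 179 of these had a called difference. Across the tested genes the effects correlated with Pearson's r of 0.377 and Spearman's rho of 0.409 over 3 stages, and r was 0.189, 0.343 and 0.417 at 3, 4 and 4.5 hpf. These are descriptions across genes, which are not independent, of effects measured against separate wildtype libraries.

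**Figure D1:**
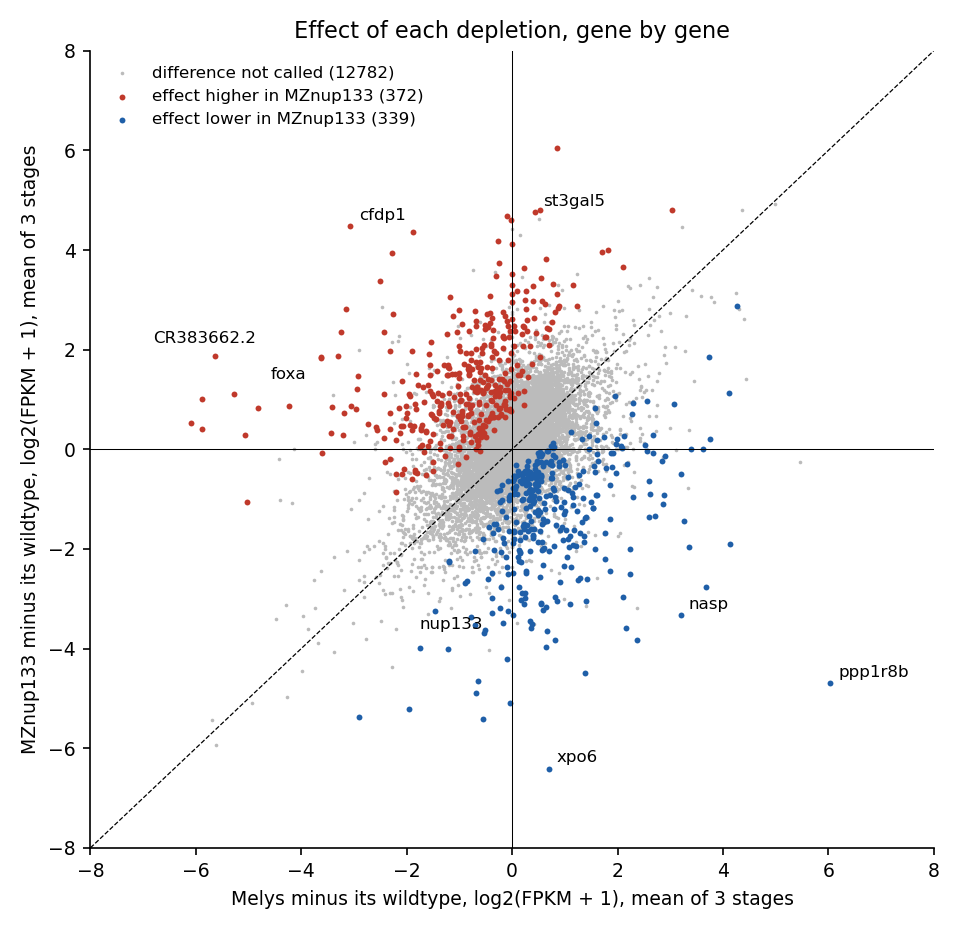
Effect of Melys (x axis) against effect of MZnup133 (y axis) over 3 stages, each as log2(FPKM + 1) minus the matched wildtype, with 1 point per gene tested and a dashed line where both effects are equal. The 372 genes with a higher effect in MZnup133 lie above the line and the 339 with a lower effect below it. Most of them were called against wildtype in only 1 depletion.

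The called genes fell into a few patterns. Of the 372 higher in MZnup133, 199 were called higher there and not called in Melys, 100 were called lower in Melys and not called in MZnup133, and 59 were higher in MZnup133 and lower in Melys. Of the 339 lower in MZnup133, 194 were called lower there alone, 79 were called higher in Melys alone, and 40 were lower in MZnup133 and higher in Melys. The median size of the 711 differences was 2.01 on the log2 scale, and 150 genes differed by at least 3. All 711 had the same sign at the 3 stages, and 591, 593 and 596 of them differed by at least 1 in that direction at 3, 4 and 4.5 hpf. The test favours such genes, since a change of the effect between stages enters its spread.

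Presence of the RNA in wildtype at 3 hpf was alike among called and tested genes: 603 of the 711 (84.8%) and 11469 of the 13493 (85.0%) had at least 1 FPKM in both wildtype libraries of that stage. Counting any of the 4 libraries of 3 hpf, 710 of the 711 (99.9%) and 12856 of the 13493 (95.3%) reached 1 FPKM. Genes that went from under 1 FPKM in both wildtype libraries of 3 hpf to 5 FPKM or higher in both of 4.5 hpf numbered 325 (2.41%) among those tested and 1 (0.141%) among those called. The same property of the test bears on this count, because a gene that is off at 3 hpf has no effect there.

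The difference of the effects also holds the difference of the wildtype series. The nup133 set differed from the elys set in 104 genes (0.771%), 64 higher and 40 lower, and 66 of these were among the 711. In 58 of the 66 the wildtype series differed in the opposite direction to the effect difference, and in 8 in the same direction. With no wildtype subtracted, MZnup133 differed from Melys in the same direction for 631 of the 711 genes, and the levels had the same order for 705. Leaving out 1 library moved the count of 711 by over 1.5 times except for the MZnup133 library at 4.5 hpf, without which 620 were called. It was 1457 without the MZnup133 library at 3 hpf and between 366 and 460 without any 1 of the other 10. Without the libraries of 4 hpf it was 65, and without those of 4.5 hpf 244.

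The largest differences were taken among called genes above 0 in all 12 libraries with a mean of at least 5 FPKM. At each stage the MZnup133 level also had to lie on the same side of the Melys level as the effect difference. Of the 10 such genes with the highest effect differences, 8 were called lower in Melys. Of these 8, 5 were also called higher in MZnup133. The forkhead gene foxa (ENSDARG00000087094) had 250, 267 and 258 FPKM in MZnup133, 59.3, 79.3 and 79.1 FPKM in the nup133 set, 23.0, 25.1 and 23.0 FPKM in the elys set and 0.509, 0.496 and 2.55 FPKM in Melys. The 4 groups did not overlap, MZnup133 lay highest and Melys lowest, and the wildtype series differed as well, by 1.56 (limma adjusted p 0.0145). The effect difference of foxa was 5.45 ± 0.34 (limma adjusted p 3.17e-05), from 1.83 ± 0.24 in MZnup133 and -3.62 ± 0.24 in Melys. The gene CR383662.2 had 390, 347 and 396 FPKM in MZnup133 against 102, 106 and 96.6 FPKM in wildtype, and 0.959, 4.42 and 3.79 FPKM in Melys against 177, 188 and 183 FPKM. It rose in the first and fell in the second, and its effect difference of 7.51 ± 0.32 was the highest among these 10 genes (limma adjusted p 3.34e-06).

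Another 3 genes on this side fell in Melys and did not pass in MZnup133. The gene si:ch211-198a12.6 had 0.727, 2.05 and 6.66 FPKM in Melys, against 89.8 to 147 FPKM in the other 9 libraries, and an effect difference of 5.36 ± 0.40 (limma adjusted p 8.63e-05). Only the 3 Melys libraries were low. For spata2l, which encodes a relative of the deubiquitinase partner Spata2, the Melys libraries had 0.798, 0.374 and 0.568 FPKM and its wildtype 66.9, 51.2 and 23.8 FPKM. MZnup133 had 72.1, 52.1 and 49.8 FPKM of spata2l against 57.8, 36.5 and 15 FPKM. Melys lay below every other library, and MZnup133 overlapped the wildtype range. The effect difference of spata2l was 5.65 ± 0.56 (limma adjusted p 0.000432).

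The remaining gene of this kind was rrm2, the small subunit of ribonucleotide reductase, which supplies the nucleotides for DNA synthesis. One copy of it (ENSDARG00000078069) had 370, 776 and 750 FPKM in MZnup133 against 313, 321 and 265 FPKM, and 2.96, 2.76 and 7.09 FPKM in Melys against 297, 293 and 282 FPKM. Its effect difference was 6.89 ± 0.46 (limma adjusted p 4.59e-05), with Melys far below the other groups compared. The Tgnup133 libraries were as low for this ID, at 1.2, 2.24 and 5.25 FPKM, so the low level was not seen in Melys alone. The table holds a second gene ID with the same symbol (ENSDARG00000020711), which stood at 880, 924 and 993 FPKM in Melys against 492, 481 and 536 FPKM, and at 429, 34.0 and 41.8 FPKM in MZnup133 against 423, 449 and 595 FPKM. Summed over both IDs, rrm2 had 883, 926 and 1000 FPKM in Melys, 788, 775 and 818 FPKM in its wildtype, 799, 810 and 792 FPKM in MZnup133 and 736, 770 and 860 FPKM in its wildtype. The effect difference of the sum was -0.05, -0.18 and -0.41 at the 3 stages, so the single-ID value is uncertain where reads can be shared between copies.

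The other 2 of the 10 rose in MZnup133 and did not pass in Melys. The sialyltransferase gene st3gal5, which makes the ganglioside GM3, had 377, 347 and 335 FPKM in MZnup133 and 15.3, 10.4 and 10.8 FPKM in its wildtype, and 104, 110 and 66.2 FPKM in Melys against 64.2, 88.2 and 54.0 FPKM. It rose by 4.77 ± 0.20 in MZnup133 (limma adjusted p 2.21e-06) and did not pass in Melys (0.43 ± 0.20, adjusted p 0.203). The wildtype series differed by -2.40 (limma adjusted p 0.000447), and MZnup133 was above the libraries of both. The Tgnup133 libraries, which share the wildtype of MZnup133, had 105, 92.4 and 46.3 FPKM of st3gal5, also above that wildtype. The gene zgc:152891 had 58.5, 56.9 and 51.7 FPKM in MZnup133 and at most 3.9 FPKM in wildtype and Melys. The Tgnup133 libraries had 27.9, 21.9 and 7.59 FPKM, so a raised level was not seen in MZnup133 alone. The effect difference of zgc:152891 was 4.44 ± 0.56 (limma adjusted p 0.0018).

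Beside foxa and CR383662.2, the genes called higher in MZnup133 and lower in Melys were ndrg3a (4.97 ± 0.33), si:dkey-68o6.5 (4.78 ± 0.27) and tgfbr2b, a TGF-beta receptor gene (4.29 ± 0.75). For ndrg3a, MZnup133 had 34.6, 26.0 and 17.4 FPKM against 4.45, 3.25 and 1.75 FPKM, and Melys 0.237, 1.49 and 0.276 FPKM against 6.15, 7.73 and 5.99 FPKM. MZnup133 lay above both wildtype series and Melys below them. The Tgnup133 libraries had 11.6, 9.36 and 8.0 FPKM of ndrg3a, also above the wildtype they share with MZnup133. The call of tgfbr2b was lost without the elys-set wildtype library or the Melys library of 4 hpf (adjusted p 0.0524 and 0.0523). The levels themselves, with no wildtype subtracted, differed by 2.5 for tgfbr2b, 1.94 for st3gal5 and 7.24 for si:dkey-68o6.5, all still called. Their direction was fixed by the naming rule, so these calls are no separate support.

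Of the 10 genes with the lowest effect differences by the same rule, 6 were called lower in MZnup133 and higher in Melys. Another 3 were called lower in MZnup133 and did not pass in Melys, and 1 was called higher in Melys and did not pass in MZnup133. The histone chaperone gene nasp (ENSDARG00000039208) had 14, 22.7 and 8.33 FPKM in MZnup133 against 243, 147 and 93.1 FPKM in wildtype, and 238, 197 and 186 FPKM in Melys against 19.7, 14.7 and 34.4 FPKM. MZnup133 and the elys set were low, the nup133 set and Melys high, and the wildtype series differed by 2.73 (limma adjusted p 0.00683). The effect difference of nasp was -6.53 ± 0.43 (limma adjusted p 4.01e-05). The same arrangement held for orc1, a subunit of the origin recognition complex, with 7.73, 6.96 and 5.58 FPKM in MZnup133, 31.9, 25.6 and 16 FPKM in its wildtype, 28.6, 28.4 and 18 FPKM in Melys and 9.32, 6.14 and 4.83 FPKM in the elys set. Its effect difference was -3.43 ± 0.27 (limma adjusted p 0.000114).

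The genes low in MZnup133 alone were eif4e2, pfdn5 and pik3r3b. The cap-binding translation repressor gene eif4e2 had 1.66, 3.3 and 2.82 FPKM in MZnup133 and between 19.1 and 46.8 FPKM in the other 9 libraries, with no overlap. Its effect difference was -3.65 ± 0.23 (limma adjusted p 3.17e-05). The gene gtf2a2, the small subunit of the general transcription factor TFIIA, had 4.82, 2.48 and 4.58 FPKM in MZnup133 against 32.0, 26.5 and 27.5 FPKM, and 53.7, 59.2 and 43.0 FPKM in Melys against 24.5, 19.7 and 13.3 FPKM. It fell in MZnup133 and rose in Melys, with an effect difference of -4.03 ± 0.24 (limma adjusted p 2.86e-05). The mitochondrial import gene timm17a (-4.46 ± 0.31), akr1a1b, which encodes an aldehyde reductase (-4.74 ± 0.50), and nagpa, whose enzyme completes the lysosomal sorting signal (-3.97 ± 0.39), moved the same way as gtf2a2. The prefoldin gene pfdn5 (-3.96 ± 0.70) lost its call without the elys-set wildtype library or the Melys library of 4 hpf, with adjusted p-values of 0.0537 and 0.0552. The gene pik3r3b encodes a regulatory subunit of phosphoinositide 3-kinase (-3.48 ± 0.56). The gene called in Melys and not in MZnup133 was dnase1l1 (-3.69 ± 0.41), with 21.4, 22.8 and 21.4 FPKM in Melys against 1.48, 1.78 and 1.21 FPKM. Its wildtype series differed by 1.65 (limma adjusted p 0.017). Taken with no wildtype subtracted, the differences of nasp, akr1a1b, dnase1l1 and orc1 were smaller, at -3.80, -2.22, -2.04 and -1.73, and still called. The rule that named these genes had already required this direction of the levels, so these calls are no separate support.

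**Figure D2:**
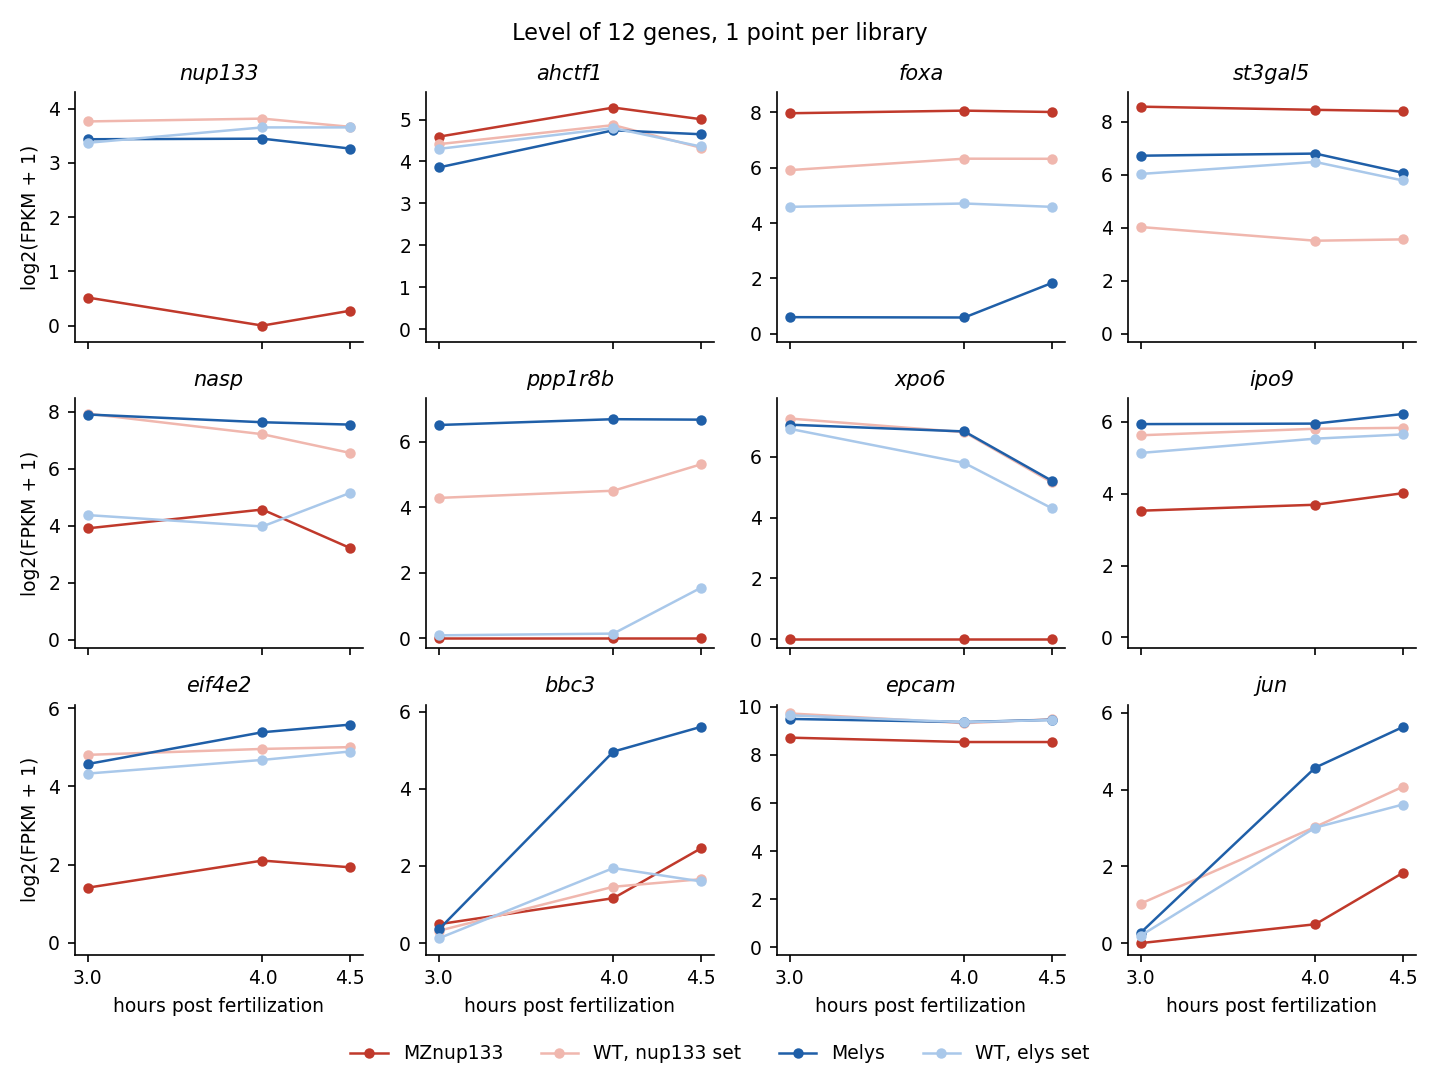
Level of 12 genes as log2(FPKM + 1) (y axis) at 3, 4 and 4.5 hpf (x axis), with 1 point per library and lines joining the libraries of a group. For nup133, xpo6, ipo9, eif4e2 and epcam the MZnup133 libraries stand apart from the other 9, and for bbc3 and jun the Melys libraries are highest at 4 and 4.5 hpf.

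In 11 genes all 3 MZnup133 libraries were listed at 0 while the other 9 libraries had 5 FPKM or more, and 0 genes had this pattern in Melys. A value of exactly 0 in a table of FPKM can be a failed estimate. The gene xpo6, which encodes the nuclear export receptor of actin, was listed at 0 in the 3 MZnup133 libraries and had 152, 111 and 34.8 FPKM in its wildtype, 132, 113 and 36.1 FPKM in Melys and 120, 54.5 and 18.8 FPKM in the elys set. The gene eif4ebp1, a repressor of cap-dependent translation, was listed at 0 in MZnup133 and had 20.0, 35.5 and 49.8 FPKM in its wildtype, 21.9, 32.5 and 44.7 FPKM in Melys and 22.9, 34.1 and 45.2 FPKM in the elys set. For eif4ebp1 Melys lay near its wildtype, while for xpo6 Melys lay above it at each stage, by 1.04 and 0.90 on the log2 scale at 4 and 4.5 hpf. The effect differences on the log2(FPKM + 1) scale passed for xpo6 (limma adjusted p 0.00015) and for eif4ebp1 (limma adjusted p 3.17e-05).

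Of the other genes listed at 0 in MZnup133, zgc:171435 had 22.9 to 51.5 FPKM in the 9 libraries. The gene cnpy4 fell in Melys as well, with 8.83, 11.9 and 12.2 FPKM against 37.1, 51.2 and 49.1 FPKM. So did gtf3ab, a TFIIIA gene for 5S ribosomal RNA transcription, with 12.9, 11.5 and 6.04 FPKM against 134, 81.1 and 44.6 FPKM. For cnpy4 and gtf3ab, Melys lay between its wildtype and the zeros of MZnup133. The call of gtf3ab was lost without the elys-set wildtype library or the Melys library at 4 hpf (adjusted p 0.0609 and 0.06, in that order) and at 4.5 hpf (0.0561 and 0.0535).

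The transcripts that appear during genome activation had medians below wildtype in both depletions at 4 and 4.5 hpf. A set of 479 zygotic genes was chosen in the Tgnup133 libraries, which are none of the groups compared, as those that went from under 1 FPKM at 3 hpf to a level of 5 FPKM or higher by 4.5 hpf. Its median MZnup133 effect was 0.0, -1.26 and -1.63 at 3, 4 and 4.5 hpf, and its median Melys effect 0.0, -0.89 and -1.30. The median effect difference was 0.00, -0.36 and -0.37, against 0.0, 0.05 and 0.13 over all genes tested. It was negative for 62.2% and 64.1% of the set at 4 and 4.5 hpf, against 46.7% and 42.8% of all genes. At the later stage part of this lies in the controls, whose median difference was 0.00 at 4 hpf and 0.23 at 4.5 hpf. With no wildtype subtracted the median difference of the set was -0.20 and -0.13. Gene by gene, 1 member passed over 3 stages (0.209%), against 5.27% of all genes. The choice of the set bears on this count, because a gene off at 3 hpf has no effect there. A later effect then enters the spread, so the count cannot show whether the depletions act alike on these genes. Over 4 and 4.5 hpf alone, 14 members passed (2.92%), 2 higher and 12 lower, against 482 of 13546 genes (3.56%).

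Maternal transcripts had medians above wildtype in both depletions at 4 and 4.5 hpf. A set of 2376 genes, picked in Tgnup133 for 10 FPKM or higher at 3 hpf and a fall of at least 1 on the log2 scale by 4.5 hpf, had a median MZnup133 effect of 0.02, 0.58 and 1.07 at the 3 stages and a median Melys effect of 0.00, 0.32 and 0.51. The median effect difference was 0.02, 0.26 and 0.58, and the wildtype series differed by -0.03, -0.16 and -0.39. With no wildtype subtracted, MZnup133 stood above Melys by a median of 0.10 at 4 hpf and 0.18 at 4.5 hpf. Of the members, 51 were called higher and 28 lower (3.32%), a share below the 5.27% of all genes.

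**Figure D3:**
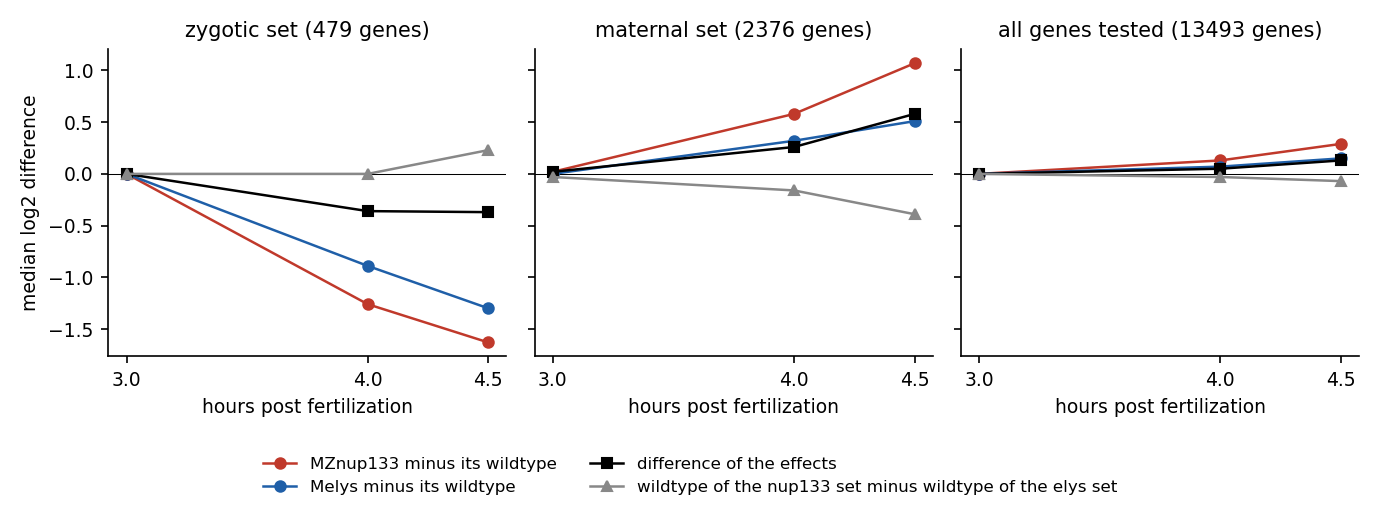
Median log2 difference (y axis) at 3, 4 and 4.5 hpf (x axis) for the zygotic set, the maternal set and all genes tested: MZnup133 and Melys minus their wildtypes (circles), the difference of the effects (squares) and the nup133 set minus the elys set (triangles). After 3 hpf the zygotic medians of both depletions lie below 0 and the maternal ones above it, further in MZnup133 (-1.63 and 1.07 at 4.5 hpf) than in Melys (-1.30 and 0.51).

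Among 68 tested genes of a list of early zygotic genes, 50 had a negative effect difference, with a median of -0.55 against 0.08 over all genes. In MZnup133 20 members fell and 5 rose (median -1.32), and in Melys 2 fell and 4 rose (median -0.83). Calls were more frequent in MZnup133 over all 13493 genes too, where 1122 fell and 1846 rose, against 628 and 740 in Melys. The effect difference itself was called for 3 members (4.41%, near the 5.27% of all genes). The count of lower members ran from 0 to 6 when 1 library was left out. The dorsal gene noto, which specifies the notochord, fell in both, by 2.44 in MZnup133 and by 1.91 in Melys, and its difference of -0.53 ± 0.46 did not pass (limma adjusted p 0.603). The SoxB1 gene sox3 also fell in both, and its difference of -0.51 ± 0.35 did not pass (limma adjusted p 0.485).

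The called members included id3, an inhibitor of basic helix-loop-helix factors and a target of BMP signalling. It had 69.1, 50.4 and 37.3 FPKM in MZnup133, 10.6, 8.56 and 10.8 FPKM in its wildtype, 8.72, 12.9 and 6.67 FPKM in Melys and 10.5, 10.8 and 15.5 FPKM in the elys set. Only MZnup133 stood apart, with an effect difference of 2.61 ± 0.46 (limma adjusted p 0.0103). The apelin receptor gene aplnrb, which guides mesendoderm cells in gastrulation, had 0, 26.6 and 72.2 FPKM in MZnup133 against 1.89, 93.3 and 84.3 FPKM, and 5.57, 287 and 493 FPKM in Melys against 1.67, 141 and 99.3 FPKM. MZnup133 was lowest and Melys highest at each stage, with a difference of -2.71 ± 0.55 (limma adjusted p 0.0209), which was lost without 7 of the 12 libraries, taken singly. The ubiquitin-like gene isg15, which also belongs to the interferon list, had 0, 8.23 and 34.7 FPKM in MZnup133 against 0, 27.3 and 54.6 FPKM, and 0.918, 163 and 337 FPKM in Melys against 0, 74.7 and 115 FPKM. Its difference of -1.95 ± 0.38 (limma adjusted p 0.0177) was lost without 5 of the 12.

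The early zygotic list was chosen with earlier results of these data known, so the share that follows is a description. Over 4 and 4.5 hpf alone, 5 of 67 fitted members of the list were called lower (7.46%, against 1.86% of all genes). These were apoeb, an apolipoprotein gene (-2.50 ± 0.33), isg15 (-2.46 ± 0.34), the ventral homeobox gene vent (-1.84 ± 0.34), the yolk syncytial layer gene mxtx2 (-1.66 ± 0.21) and the claudin gene cldne (-1.49 ± 0.16), with limma adjusted p-values of 0.0147, 0.0166, 0.0387, 0.0111 and 0.00794. For apoeb, the MZnup133 libraries of these stages had 11.3 and 68.0 FPKM against 183 and 549 FPKM, and Melys 96.8 and 287 FPKM against 204 and 511 FPKM. Both were below wildtype, MZnup133 further. For mxtx2, which induces the yolk syncytial layer, MZnup133 had 9.96 and 19.9 FPKM against 27.3 and 62.4 FPKM, while Melys had 33.3 and 61.2 FPKM against 30.2 and 52.8 FPKM, close to each other.

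Lists of early tissues mostly leaned the same way with few calls. Where 1 member was called, this was 4.76% to 6.25% of a list, near the 5.27% of all genes. The median effect difference was -0.45 over 16 dorsal organizer genes, -0.28 over 21 ventral and BMP genes, -0.55 over 20 mesoderm and endoderm genes, -0.22 over 18 genes of the enveloping layer and epidermis, -0.85 over 9 genes of the yolk syncytial layer and -0.12 over 13 neuroectoderm genes. Some of these genes are also in the early zygotic list. All 9 yolk syncytial layer genes were negative and 0 of them passed with limma (1 at an unadjusted p under 0.05), as did 0 of the neuroectoderm genes (1 at that level). In the dorsal list frzb, a secreted Wnt antagonist, was called, with 0, 0 and 0.0987 FPKM in Melys and 1.66 to 3.74 FPKM in the other 9 libraries. The epithelial adhesion gene epcam, of the enveloping layer list, had 421, 371 and 371 FPKM in MZnup133 and 639 to 847 FPKM in the other 9, with an effect difference of -0.87 ± 0.10 (limma adjusted p 0.0013). Germ plasm genes gave 0 calls of 21 with limma, 7 at an unadjusted p under 0.05, with a median of 0.12. The median turned to -0.20 with no wildtype subtracted, where 0 were called higher and 4 lower. Of all 13493 genes, 1108 were called higher and 938 lower in that contrast.

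Among 44 maternal oocyte genes the median effect difference was 0.23, and 2 were called higher (4.55%, near the 5.27% of all genes called either way). The median turned to -0.05 without the MZnup133 library of 4.5 hpf and to -0.12 with no wildtype subtracted. In the latter contrast 5 were called higher and 3 lower, against 1108 and 938 of all 13493 genes. The zygote arrest gene zar1, which binds stored RNA in the oocyte, had 79.4, 68.5 and 67.5 FPKM in MZnup133, 38.5, 45.0 and 30.8 FPKM in its wildtype, 28.5, 32.7 and 24.1 FPKM in Melys and 27.6, 35.9 and 31.3 FPKM in the elys set. MZnup133 stood above all the others, by a difference of 1.06 ± 0.22 (limma adjusted p 0.0244) that was lost without 6 of the 12 libraries, taken singly. The other was wee2, an oocyte kinase that inhibits entry into division, at 26.3, 26.6 and 25.4 FPKM in MZnup133 and at most 11.7 FPKM elsewhere. Among 26 maternal activators of the zygotic genome the median was -0.01, and gabpa, an ETS family factor, was called lower (-1.03 ± 0.21, limma adjusted p 0.0233). The call of gabpa was lost without 10 of the 12 libraries, taken singly. Of 46 genes of maternal RNA clearance and protection, zar1 was called higher and zfp36l2, which binds AU-rich elements and promotes decay, lower (-2.54 ± 0.49, limma adjusted p 0.016). The call of zfp36l2 was lost without 8 of the 12.

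Of 32 tested genes of the nuclear pore, 8 had a called effect difference (25%), against 5.27% of all genes. The depleted gene nup133 was 1 of the 8, and most of these calls were lost without some single libraries. At an unadjusted p under 0.05 the shares were closer, 25% of these genes and 19.3% of all genes. Of 10 genes of the Y-complex and Elys, nup133 itself and nup160 were called lower, and the median effect difference of 0.06 turned to -0.01 under median-ratio scaling. The Y-complex gene nup160 had 40.0, 36.1 and 30.7 FPKM in Melys and 15.8 to 27.3 FPKM in the other 9 libraries, with MZnup133 inside the wildtype range. Its effect difference of -0.97 ± 0.22 (limma adjusted p 0.0328) was lost without 10 of the 12 libraries, taken singly. Among 22 other nucleoporins 3 were called higher and 3 lower, around a median of 0.02 that turned to -0.05 under median-ratio scaling.

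Those called higher were nup42, of the cytoplasmic filaments (1.71 ± 0.31), rae1, a partner of Nup98 in mRNA export (1.07 ± 0.24), and nup62l, of the central channel (0.76 ± 0.14). The gene nup42 had 3.74, 3.4 and 7.77 FPKM in Melys and 12 to 29.9 FPKM in the other 9 libraries. Those called lower were nup88, of the cytoplasmic face (-1.15 ± 0.22), tpra, of the nuclear basket (-0.70 ± 0.15), and nup50, of the nuclear side (-0.61 ± 0.12). The gene nup88 had 24.1, 19.5 and 16.0 FPKM in MZnup133 and 24.1 to 44.2 FPKM in the others, so only its 3 hpf library reached their range. Each of these 6 calls was lost without at least 2 libraries, taken singly. The count of other nucleoporins called was 0 without the libraries of 3 hpf, and also without those of 4 hpf.

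Of 33 nuclear transport receptors and Ran pathway genes, 2 were called (6.06%, near the 5.27% of all genes). These were xpo6 and ipo9, both lower and with every library left out in turn. The import receptor gene ipo9, which carries core histones, had 10.5, 11.9 and 15.1 FPKM in MZnup133, 48.2, 54.8 and 55.8 FPKM in its wildtype, 60.0, 60.6 and 73.1 FPKM in Melys and 34.0, 45.1 and 49.0 FPKM in the elys set. MZnup133 lay below and Melys above every wildtype library. The effect difference was -2.60 ± 0.19 (limma adjusted p 7.33e-05). The 13 tested genes of the lamina and nuclear envelope gave 0 calls with limma, 3 at an unadjusted p under 0.05, and a median of -0.05.

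Of 23 tested members of the damage response list, 0 had a called effect difference with limma over 3 stages and 9 had an unadjusted p under 0.05 (39.1%, against 19.3% of all genes). That share was 36.8% in the heat shock and chaperone list and 51.2% in the cytoplasmic ribosome list. Of the damage response members 15 had a negative and 8 a positive difference. Their median difference was -0.28, from -0.14 in MZnup133 and 0.25 in Melys. In Melys 3 were called higher and 1 lower, while 10.1% of all genes were called there. The damage response genes bbc3, which encodes the pro-apoptotic Puma, and sesn1, which restrains mTORC1, were high in Melys after 3 hpf. The gene bbc3 had 0.276, 30.2 and 47.6 FPKM in Melys against 0.0881, 2.85 and 2.03 FPKM, and 0.403, 1.24 and 4.47 FPKM in MZnup133 against 0.247, 1.75 and 2.15 FPKM. The gene sesn1 had 11.7, 69.0 and 103 FPKM in Melys and 8.69 to 18.2 FPKM in the other 9 libraries. The Melys libraries of both genes were alike wildtype at 3 hpf and apart from it at 4 and 4.5 hpf. Over 3 stages neither difference passed, with limma adjusted p-values of 0.218 for bbc3 and 0.181 for sesn1. Over 4 and 4.5 hpf alone both were called lower in MZnup133 than in Melys, by -3.26 ± 0.64 (adjusted p 0.048) and -2.42 ± 0.48 (adjusted p 0.0497), as was gadd45aa, a stress-induced gene of growth arrest (-2.13 ± 0.36, adjusted p 0.0317). In that fit 3 of the 23 members were called lower (13%), against 1.86% of all genes. This share is a description. The list was chosen with earlier results of these data known, and the fit keeps the stages where bbc3 and sesn1 were high in Melys. The cell cycle inhibitor gene cdkn1a had 0.883, 44.3 and 47.5 FPKM in Melys against 0.302, 12.4 and 7.83 FPKM, and its difference over 3 stages did not pass (limma adjusted p 0.489).

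The immediate early gene jun was also highest in Melys at 4 and 4.5 hpf. It had 0, 0.406 and 2.55 FPKM in MZnup133 against 1.04, 7.16 and 15.8 FPKM, and 0.207, 22.8 and 48.4 FPKM in Melys against 0.145, 7.05 and 11.2 FPKM. At 4 and 4.5 hpf MZnup133 lay below and Melys above both wildtype series. The effect difference was -3.16 ± 0.57 (limma adjusted p 0.0121), lost without the Melys library or its wildtype at 4 or at 4.5 hpf, taken singly. Of 14 tested immediate early genes (median -0.51), jun was the 1 called (7.14%, near the 5.27% of all genes). Over 4 and 4.5 hpf alone fosab, the partner of Jun in AP-1, was called as well (-2.50 ± 0.40, adjusted p 0.0275), with 18.2 and 15.2 FPKM in Melys and 1.54 to 3.41 FPKM elsewhere.

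Genes of the cell cycle gave 3 higher and 3 lower of 48 (12.5%, against 5.27% of all genes). At an unadjusted p under 0.05 the share was 18.8%, near the 19.3% of all genes. The calls include the rrm2 ID whose single-ID value is uncertain. Their median of 0.03 was -0.04 under median-ratio scaling and -0.10 with no wildtype subtracted. Beside orc1, rrm2 and wee2, the genes called were espl1, ncaph and ccna2. The separase gene espl1, whose protease cuts cohesin, had 46.5, 35.6 and 33.1 FPKM in Melys and 6.93 to 13.6 FPKM in the other 9 libraries, with a difference of -1.41 ± 0.24 (limma adjusted p 0.00974). The condensin gene ncaph (1.1 ± 0.20) was lost without 4 libraries and the cyclin A gene ccna2 (-0.38 ± 0.09) without 11, taken singly. Of 19 heat shock and chaperone genes hspa8, a constitutive Hsp70, was called lower (-0.65 ± 0.15, limma adjusted p 0.0346). This call was lost without 10 of the 12 libraries, taken singly.

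Genes of the cytoplasmic ribosome were lower in MZnup133 relative to wildtype, and their wildtype series differed too. Of 84 genes matched by their names, which take in rps19bp1 and rpl7l1, 74 had a negative effect difference, with a median of -0.50. Over all genes tested 44.7% were negative. Of the 84, 12 were called lower (14.3%), against 2.51% of all genes. In MZnup133 30 fell and 1 rose (median -0.37), while in Melys 6 fell and 11 rose (median 0.12). Over all 13493 genes 1122 fell and 1846 rose in MZnup133, and 628 fell and 740 rose in Melys. The nup133 set stood above the elys set by a median of 0.44, with 10 genes called higher, against 64 of all 13493 genes. With no wildtype subtracted, MZnup133 and Melys differed by a median of -0.06, with 2 called higher and 5 lower. Of all 13493 genes, 1108 were called higher and 938 lower in that contrast. The count of 12 was 36 without the MZnup133 library at 3 hpf and 3 to 7 without any 1 of the others. It was 4 in the fit without Tgnup133, 3 with no variance trend, 6 with median-ratio scaling and 7 with no filter. With a pseudocount of 0.1, a mean of 5 FPKM or rescaling to the same sum it was 11 to 14. Without the libraries of 3, 4 and 4.5 hpf it was 11, 0 and 2.

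The gene rps26 had 110, 148 and 200 FPKM in MZnup133, 229, 268 and 306 FPKM in its wildtype, 213, 277 and 324 FPKM in Melys and 143, 207 and 229 FPKM in the elys set. At each stage MZnup133 was lowest, the elys set next, and the other groups highest. Its effect difference was -1.33 ± 0.16 (limma adjusted p 0.00112). The gene rpl19 had 113, 107 and 126 FPKM in MZnup133 against 157, 258 and 287 FPKM, and 150, 166 and 177 FPKM in Melys against 103, 122 and 172 FPKM. The wildtype series of rpl19 differed by 0.80 (limma adjusted p 0.025), and its effect difference was -1.31 ± 0.22 (limma adjusted p 0.00899). With rps25, these were the 3 of the 12 called without each library in turn.

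Of 86 tested nuclear genes of oxidative phosphorylation, 5 were called higher and 0 lower with limma (5.81%, near the 5.27% of all genes), with a median of 0.24. Without the 3 hpf library of Melys or of its wildtype the median was 0.05 and 2 were called. Between the levels themselves it was 0.32, with 16 called higher and 0 lower. That contrast called more genes over all 13493, with 1108 higher and 938 lower. The 5 called for the effect difference were ndufs8b (1.77), ndufb4 (1.15) and ndufb9 (0.96) of complex I, uqcrfs1 of complex III (1.1) and atp5mc3b of the ATP synthase (0.73). Only uqcrfs1 kept its call without each library in turn. The 13 mitochondrially encoded genes gave 0 calls with limma for the difference (1 at an unadjusted p under 0.05, median -0.20). Of them 11 fell in MZnup133 and 6 in Melys, against 1122 and 628 of all 13493 genes. Mitochondrial ribosomal proteins gave 2 higher and 2 lower of 73 (5.48%, near the 5.27% of all genes), of which mrps31 (4.77) and mrpl51 (-4.71) differed most. The gene mrps31 had 20.5, 27.2 and 26.6 FPKM in MZnup133 and at most 0.206 FPKM in the other 9 libraries.

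Proteasome genes gave 2 higher and 1 lower of 52 (5.77%, near the 5.27% of all genes), around a median of 0.22. The lid subunit gene psmd12 had 17.5, 25 and 30.8 FPKM in Melys against 89.8, 106 and 114 FPKM, and 33.9, 43.9 and 44.1 FPKM in MZnup133 against 35.9, 64.2 and 65.2 FPKM (difference 1.67 ± 0.19). It fell in Melys and did not pass in MZnup133. Another lid subunit gene, psmd11b, had 18.6, 12.8 and 23.9 FPKM in MZnup133 and 36.3 to 57.2 FPKM in the other 9 (difference -1.69 ± 0.19). The core subunit gene psma8 was called higher (1.04). Splicing factors gave 0 higher and 2 lower of 52 (prpf38a and sf3b5), histone genes 1 and 1 of 44, and zinc finger genes of the znf family 5 and 1 of 233. Their shares of 3.85%, 4.55% and 2.58% were below the 5.27% of all genes. Histone and zinc finger genes include near-identical copies between which reads can be split. Over all lists, 60 members were called and 23 of them kept the call without each library in turn.

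**Figure D4:**
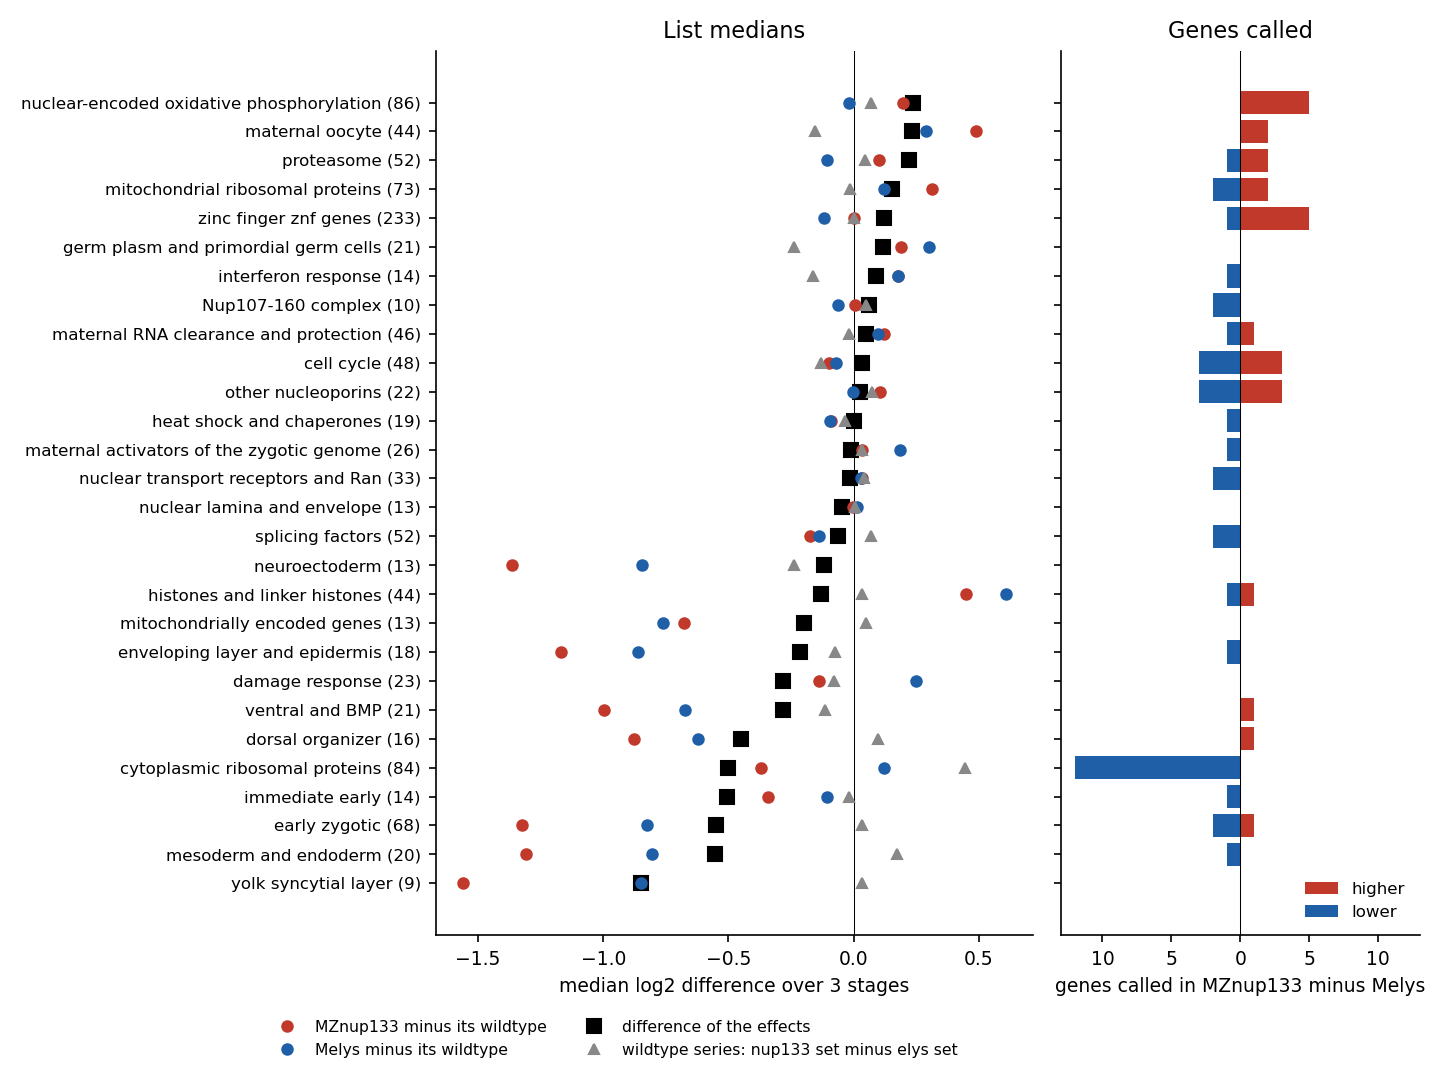
Left, median log2 difference over 3 stages (x axis) of each gene list (y axis, tested genes in brackets) for MZnup133 and Melys against their wildtypes (circles), the difference of the effects (squares) and the wildtype series (triangles); right, members called higher (red) or lower (blue) in MZnup133 minus Melys. The difference has a median of -0.55 for early zygotic genes, -0.50 for the cytoplasmic ribosome, where 12 are called lower, and 0.24 for oxidative phosphorylation.

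Genes with a called difference often lay beside each other. Gene order was read from the RefSeq assembly GRCz12tu, which is not the build of the table, and 11119 tested genes were placed by a unique symbol. Of 603 called genes among them, 135 (22.4%) had a called gene as a neighbour, against 1008 of 10516 genes not called (9.59%). For the calls against wildtype the shares were 44.5% and 38.0% in MZnup133, and 27.4% and 18.4% in Melys. Whether reads were assigned by strand is not given in the sources used here, so values of overlapping neighbours are uncertain.

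The runs of 3 or more neighbouring called genes described here numbered 13, with 43 genes in all, of which 8 runs were higher throughout, 4 lower throughout and 1 mixed. The longest held gpbp1l1 (-2.33), nasp, akr1a1b, prpf38a (-1.36) and orc1, all lower. Another lower run held ppp1r8b (-10.73), tfpt (-4.24) and mrpl51 (-4.71), and a further one ipo9, shisa4 (-3.19) and timm17a. Higher runs held fus (2.33), setd1a (2.12), hsd3b7 (2.46) and cd2bp2 (1.48), or hacd3 (2.04), ints14 (3.41), dennd4a (1.74) and rab11a (2.51). The mixed run held stt3b (0.98), tgfbr2b and rbms3 (-2.28). In the longest run the nup133 set stood above the elys set by 0.77 to 2.73. This wildtype difference was called for nasp, akr1a1b, prpf38a and orc1, and in other lower runs for ppp1r8b (4.11), tfpt (1.68) and gde1 (1.84). In the ipo9 run, the higher runs and the mixed run no gene had a called wildtype difference. Of the 50 placed genes nearest nup133, 0 had a called effect difference with limma, and of the 100 nearest 2 did. The same counts held around ahctf1. With 5.27% of all genes called, such small numbers do not set these neighbours apart. Against wildtype, 10 of the 50 nearest nup133 were called in MZnup133, where 22.0% of all genes were called. Of the 50 nearest ahctf1, 6 were called in Melys, against 10.1% of all genes.

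**Figure D5:**
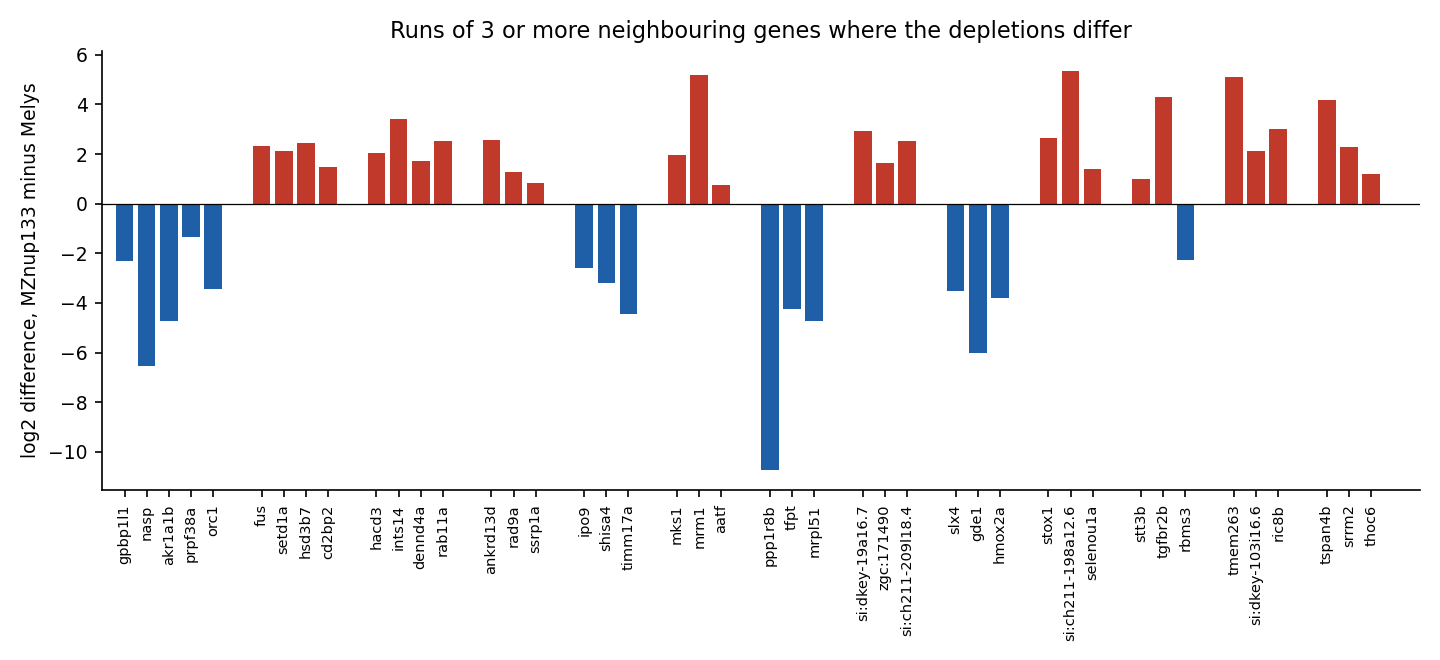
Effect difference, MZnup133 minus Melys, on the log2(FPKM + 1) scale (y axis), with 1 bar for each of the 43 genes in the runs described of 3 or more neighbouring called genes, grouped by run in the gene order of GRCz12tu (x axis); red is higher and blue lower in MZnup133. In 12 of the 13 runs all genes lie on the same side of 0. The bars also hold the difference of the wildtype series, which was called for some genes of the lower runs.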

How the data were processed

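RNA-seq of poly(A) RNA from whole zebrafish embryos was deposited as 1 table of FPKM values per gene, which the authors had normalized for transcript length and library size. The submitters' processing notes name the GRCz11 build and the tools Cufflinks 2.2.1, STAR 2.5.3a and Trim Galore, with options not given in the sources used here. No counts were used, so depth and counting error are unknown, and the number of libraries limits the precision. Of 23800 lines, 74 repeats were dropped, 71 genes had no symbol in the table and 64 of these were named from a reference gene table.

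Genes whose mean reached 1 FPKM entered limma 3.58.1 (R 4.3.3) on log2(FPKM + 1), with a pseudocount of 1, a term for the level of every control set at every stage, and an effect for each of MZnup133, Melys and Tgnup133 (15 libraries, 6 residual degrees of freedom). The wildtype series were compared in a fit with a level per stage. Tests were two-sided, with a trended variance and Benjamini-Hochberg adjustment over 13493 genes, and ± is the SE of the fit over 3 stages. Values given over 4 and 4.5 hpf alone come from the same model fitted without the 3 hpf libraries, with adjustment over 13546 genes. There ± is the SE of that fit, which had fewer libraries and fewer residual degrees of freedom. The fit was tested on simulated data. Summaries and figures used Python 3.11.15, pandas 2.3.3 and numpy 2.4.6.

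The members and lists were chosen with earlier results of these data known. Genes were named as the 10 highest and 10 lowest called differences with a mean of 5 FPKM and no value of 0. These also needed the same sign of the effect difference at every stage, and the MZnup133 level on that side of the Melys level at every stage. Also named were up to 5 in each direction listed at 0 in 1 depletion or moved in opposite directions, called list members and list examples. Alternatives were another pseudocount (0.1), no filter or a mean of 5 FPKM, other scalings, 12 libraries, no variance trend, each library or stage left out, no wildtype subtracted and both wildtype series as control. Some genes that the rule names, and the neighbour runs that hold them, are not reported here.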

Additional observations from a re-analysis of the deposited data

Results flagged for a closer look

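In the 9 genes described here every stage of MZnup133 moved one way against its wildtype and every stage of Melys the other way. They were picked for the size of their smaller effect among 99 genes called in opposite directions, so their size is a description. Other genes, such as foxa and gtf2a2, had this pattern too. The difference itself passed with limma in the 9, which opposite calls all but ensure, so it is no separate support.

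Higher in MZnup133 and lower in Melys were cfdp1 (7.55), tmem170a (6.2), wee2 (5.89), si:ch211-69g19.2 (5.61) and si:dkey-68o6.5 (4.78), given as effect differences on the log2(FPKM + 1) scale. The chromatin-associated gene cfdp1 had 21.8, 22.0 and 25.9 FPKM in MZnup133, 0, 0.277 and 0 FPKM in its wildtype, 0 in all 3 Melys libraries and 9.11, 5.27 and 8.30 FPKM in the elys set. The membrane protein gene tmem170a was listed at 0 in Melys and in the nup133 set, and had 20.9, 16.1 and 8.49 FPKM in MZnup133 and 7.14, 2.92 and 2.54 FPKM in the elys set. For cfdp1 and tmem170a the wildtype series stood apart, by -2.95 (limma adjusted p 0.00066) and -2.27 (limma adjusted p 0.00665), and so did that of si:dkey-68o6.5, by 2.46 (limma adjusted p 0.00066). The Tgnup133 libraries, which share the wildtype of MZnup133, stood above it at each stage for cfdp1, tmem170a, si:ch211-69g19.2 and si:dkey-68o6.5. For wee2 this held at 3 and 4 hpf only. For si:ch211-69g19.2 they had 61.3, 38.5 and 41.0 FPKM, with 73.7, 44.4 and 46.1 FPKM in MZnup133 and 14.6, 8.86 and 6.63 FPKM in wildtype. For si:dkey-68o6.5 they were closer to wildtype, at 49.9, 64.2 and 55.0 FPKM against 42.8, 47.6 and 51.4 FPKM.

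Lower in MZnup133 and higher in Melys were ppp1r8b (-10.73), nasp (-6.53), foxf2b (-6.44) and akr1a1b (-4.74). The gene ppp1r8b, which encodes a nuclear inhibitor of protein phosphatase 1, was listed at 0 in the 3 MZnup133 libraries and had 18.5, 21.7 and 38.6 FPKM in its wildtype, 90.1, 102 and 101 FPKM in Melys and 0.0668, 0.107 and 1.91 FPKM in the elys set. Its wildtype series differed by 4.11 (limma adjusted p 5.58e-05), and those of nasp, foxf2b and akr1a1b were called in the same direction. In Tgnup133 foxf2b was low as well, at 0.137, 1.49 and 1.09 FPKM against 13.7, 4.55 and 4.56 FPKM in the shared wildtype. For ppp1r8b the Tgnup133 libraries stood above that wildtype, at 34.7, 32.0 and 39.5 FPKM. For nasp and akr1a1b they were below it and well above MZnup133. With no wildtype subtracted, all 9 genes were still called in the same direction with limma, and most of the differences were smaller: -6.62 for ppp1r8b, -3.80 for nasp, -4.06 for foxf2b, -2.22 for akr1a1b, 4.60 for cfdp1, 3.93 for tmem170a and 4.21 for wee2. The values were 5.65 for si:ch211-69g19.2 and 7.24 for si:dkey-68o6.5. All 9 genes were picked for opposite effects in these same MZnup133 and Melys libraries, so these calls are no separate support.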

How the results depend on the processing

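The count of 711 genes with a called effect difference became 65 over all genes without the 4 hpf libraries, 244 without those of 4.5 hpf, 2046 with no wildtype subtracted, and 366 to 1457 without 1 library; of the 711 themselves, 62, 229, 631 and 350 to 677 were still called. The MZnup133 count of 2968 became 298 and 862 without those stages and 1331 to 4982 without 1 library. The Melys count of 1368 became 166 and 428, 507 to 2171 without 1 library, and 2562 with both wildtype series as control. The wildtype count of 104 became 18, 1 and 16 without 3, 4 and 4.5 hpf and 26 to 131 without 1 library. The causes were not tested, beyond the fewer libraries that each of these fits held except those with other controls. For these counts over all genes the other alternatives stayed within 1.5 times, and for the difference gave 482 to 727. Counts within a list, such as that of the cytoplasmic ribosome, could move more. With median-ratio scaling the all-gene median in MZnup133 went from 0.15 to 0, and 1409 genes were then called higher and 1565 lower in place of 1846 and 1122. It gave 614 and 793 in Melys in place of 740 and 628, and 362 and 365 for the difference. No gene of the 711 changed sign, except 6 with no wildtype subtracted. Of 32 named genes called, 21 were called in every alternative, and the 21 losses all came with a library or stage left out, among them nup133 without 4 hpf (-3.16, limma adjusted p 0.0544). No paired analysis was possible because the labels carry no replicate numbers, beyond the matching of each depletion to a wildtype by stage and column number that the fit already holds.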
